A study of Homo sapiens with 8 samples.

Results

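The genes described here are 37 genes of cholesterol and fatty acid synthesis and of sterol sensing and transport, listed by symbol, with no threshold on measured values, and found in the deposited table through their Entrez identifiers. All 37 were among the 18478 genes of the table. RNA was sequenced from A2058 and C8161, both established human melanoma cell lines, grown in DMEM with 10% fetal bovine serum and penicillin/streptomycin. Each line had been transduced with a retrovirus to carry either ATF3, which encodes a transcription factor induced by many kinds of stress, or the neomycin control. The labels do not say whether the transduced cells were pools or clones, whether libraries came from separate cultures, or what promoter drove ATF3. They list 8 libraries, 3 for each C8161 arm and 1 for each A2058 arm.

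The table gives RPKM, reads per kilobase of transcript scaled to the number of reads in the library. It has 1 column for each A2058 library and 1 column for each whole C8161 arm, whose 3 libraries the authors combined in a way that is not stated. In such bulk samples fewer expressing cells and less RNA per cell cannot be told apart. No spread between replicates could be computed and no test was possible. All differences below describe 1 value against 1 value, with no replicate check. The level of ATF3, introduced and own transcripts together, was 62.57 RPKM against 4.76 in the C8161 control (13.1-fold), and 4.71 against 1.22 in A2058 (3.86-fold). Column sums lay between 470633 and 481302 RPKM. Steps in the low values of the A2058 columns lay near 0.054 RPKM per read and kilobase, only an approximate guide to depth. The C8161 columns gave no such step, so their depth is unknown. Of 11 markers of the melanocyte lineage and of melanoma, all 11 were at 1 RPKM or more in both A2058 columns, with PMEL at 805.51 and SOX10 at 253.85 RPKM in the control. In C8161, 1 (control) and 2 (with ATF3) of the 11 reached 1 RPKM. There AXL, a receptor kinase of dedifferentiated melanoma, was at 279.65 RPKM in the control, SOX10 was at 0.06, and TYR and PAX3 were listed at 0. Of 6 markers of hepatocytes, which make much of the body's cholesterol, the 5 found summed to at most 0.34 RPKM in any column. Of 5 adipocyte markers CIDEC alone reached 1 RPKM. The fibroblast markers LUM and COL1A1 were at 7.67 and 3.97 RPKM in the A2058 control, and the leukocyte marker LYZ at 1.28. In C8161 these 3 were under 1 RPKM. The other fibroblast and leukocyte markers found, and all keratinocyte markers found, were under 1 RPKM in every column.

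Cells make cholesterol from acetyl-CoA by way of mevalonate, farnesyl diphosphate, squalene and lanosterol, and make fatty acids from the same acetyl-CoA through malonyl-CoA. The transcription factors SREBP1 and SREBP2, encoded by SREBF1 and SREBF2, switch on most of these enzymes. When sterols are low, the escort protein SCAP carries them from the endoplasmic reticulum to the Golgi for cleavage, and when sterols are high the INSIG proteins hold SCAP back. Excess sterol acts in the other direction through LXR, which induces the exporters ABCA1 and ABCG1 and the ubiquitin ligase MYLIP. Serum in the medium supplies cultured cells with lipoprotein cholesterol.

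SREBPs bind sterol regulatory elements close to the start of their targets, usually beside sites of NF-Y, which binds CCAAT, and of SP1, which binds GC boxes. The 250 bases before the start first listed for a gene in the RefSeq promoters of GRCh38.p14 were available for 32 of the 37 genes. They were searched on both strands. Shown are the stretches of the 4 genes with the highest C8161 ratio of ATF3 to control (STARD4, INSIG1, SCD and HMGCS1). SREBF2 is added because it holds a match to the sterol element, chosen after the search. Capitals mark the letters TCACNCCA, used for the sterol regulatory element, and CCAAT, on either strand.
STARD4, chr5:111512536-111512785, minus strand: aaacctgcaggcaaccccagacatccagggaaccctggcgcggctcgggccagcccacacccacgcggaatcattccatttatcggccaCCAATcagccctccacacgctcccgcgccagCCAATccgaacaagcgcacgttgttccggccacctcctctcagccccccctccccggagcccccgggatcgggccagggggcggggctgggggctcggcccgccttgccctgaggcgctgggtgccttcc
INSIG1, chr7:155297628-155297877, plus strand: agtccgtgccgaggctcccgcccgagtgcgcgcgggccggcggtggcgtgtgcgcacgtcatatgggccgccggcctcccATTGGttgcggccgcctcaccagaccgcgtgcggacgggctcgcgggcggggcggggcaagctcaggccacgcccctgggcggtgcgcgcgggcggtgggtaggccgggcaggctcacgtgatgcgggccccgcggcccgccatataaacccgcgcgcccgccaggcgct
SCD, chr10:100346983-100347232, plus strand: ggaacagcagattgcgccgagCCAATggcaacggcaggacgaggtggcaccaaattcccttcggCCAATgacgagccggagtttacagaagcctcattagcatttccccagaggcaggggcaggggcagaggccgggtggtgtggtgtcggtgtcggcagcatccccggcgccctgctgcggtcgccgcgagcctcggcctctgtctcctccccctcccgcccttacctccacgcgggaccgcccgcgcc
HMGCS1, chr5:43313413-43313662, minus strand: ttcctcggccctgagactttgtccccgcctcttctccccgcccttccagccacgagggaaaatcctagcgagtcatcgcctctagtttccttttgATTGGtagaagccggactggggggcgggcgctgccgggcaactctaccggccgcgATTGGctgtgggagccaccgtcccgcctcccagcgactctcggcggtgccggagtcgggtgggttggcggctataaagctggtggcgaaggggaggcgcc
SREBF2, chr22:41832855-41833104, plus strand: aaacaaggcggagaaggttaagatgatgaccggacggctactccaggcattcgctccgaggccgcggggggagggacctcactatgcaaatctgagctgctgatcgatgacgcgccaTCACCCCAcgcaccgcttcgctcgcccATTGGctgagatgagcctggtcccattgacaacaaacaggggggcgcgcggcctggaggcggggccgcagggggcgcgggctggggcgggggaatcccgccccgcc

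The CCAAT box was found in 19 of the 32 stretches (59.4%), against 33.0% of 27305 promoters in the table and 35.2% of the 9014 whose gene was compared in C8161. STARD4, SCD and HMGCS1 hold 2 each, and INSIG1 and SREBF2 hold 1. PMVK, the gene with the lowest C8161 ratio, holds none, but its stretch lies inside the span of the gene. The same is true of the stretches of ACLY, CYP51A1, DHCR7, ELOVL6, LPIN1, MVK and SCAP. The motif counts given here thus mix sequence upstream of genes with sequence within them. The GC box GGGCGG was found in 30 of 32 (93.8%), against 69.2% of the promoters of compared genes and 42.3% of all. The sterol element letters were found in 3 of 32 (9.38%), MSMO1, MVK and SREBF2, against 2.78% of compared and 3.18% of all promoters. In SREBF2 they begin at position −133 and the CCAAT box at −106, counted back from the start. ATF3 and its relatives bind the cyclic AMP response element TGACGTCA, which was found in 1 of the 32 (3.12%), FADS1, against 2.97% of compared and 1.77% of all promoters. Its first 5 letters, TGACG, which the full element contains, were found in 12 (37.5%), against 31.1% and 21.7%. The E-box CACGTG was found in 4 (12.5%), against 9.35% and 6.49%. The median C8161 ratio of the 19 genes with a CCAAT box was −0.02 on the log2 scale, and that of the 13 without was 0.08. For TGACG these medians were 0.10 with and 0.01 without, for the sterol element and the E-box 0.10 and 0.03 each, and for the GC box 0.04 and 0.05. A match of letters is a description of the sequence and not a bound site.

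SCD, the desaturase that makes oleate from stearate, and FDPS, which makes farnesyl diphosphate, were the 2 most abundant genes of the list in every column. SCD was at 153.11 RPKM with ATF3 and 149.52 in the control in A2058, and at 221.79 and 185.79 in C8161. FDPS was at 124.32 and 116.43 in A2058 and at 146.19 and 150.03 in C8161. The lowest was ABCG1, at 0.06 and 0.02 RPKM in A2058 and at 0.53 and 0.37 in C8161, below the minimum of 1 RPKM in every column. The summed level of the 37 genes was 1079.72 RPKM with ATF3 against 1069.25 in the A2058 control, and 1341.41 against 1285.07 in C8161. These sums were 0.227% of the column in both A2058 arms, 0.284% in C8161 with ATF3 and 0.267% in the C8161 control. The list as a whole thus differed more between the lines than between the arms of either line.

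**Figure D1:**
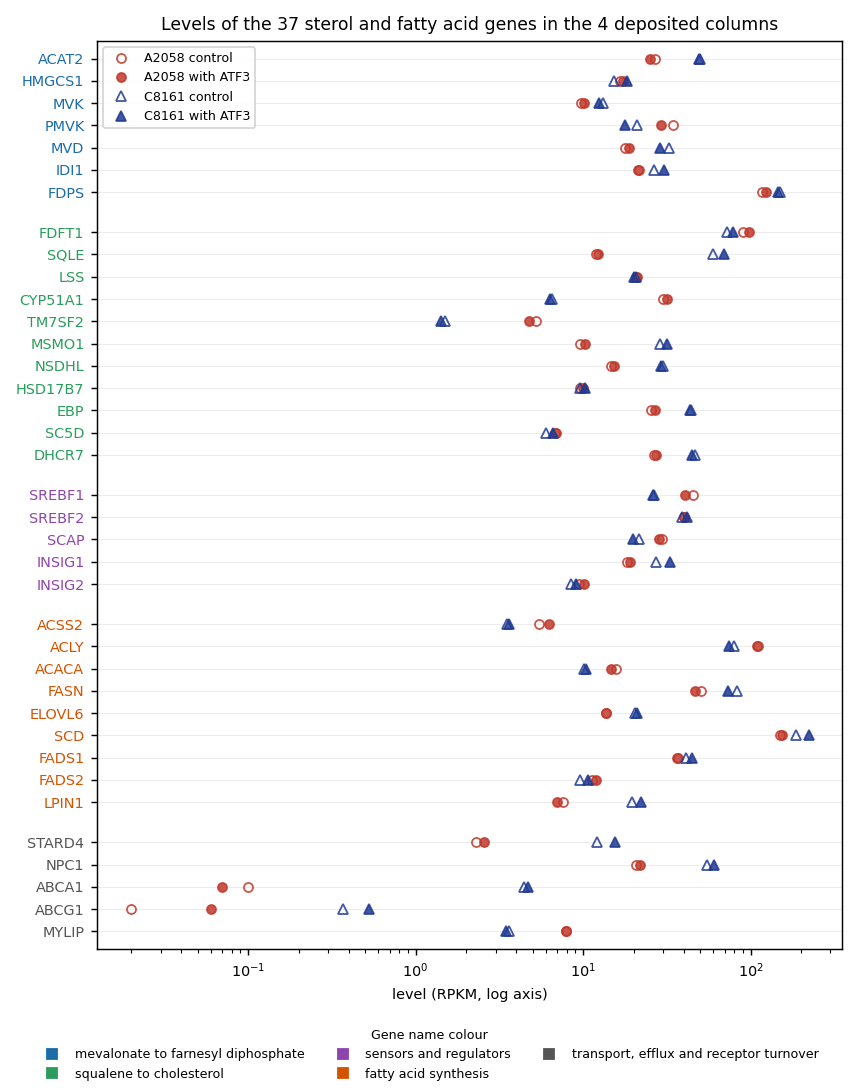
Level of each of the 37 genes in RPKM on a log axis, grouped by role. Open symbols are neomycin controls and filled symbols are cells with ATF3, circles are A2058 and triangles are C8161. Each point is 1 deposited value without replicate error. SQLE, STARD4 and NPC1 lie further right in C8161, CYP51A1 and TM7SF2 further left, and ABCA1 and ABCG1 are near 0.1 RPKM or lower in A2058.

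Arms were compared by the log2 ratio, the value of log2(RPKM + 1) in the ATF3 column less that in the control column, a scale that understates differences of low genes. Genes with at least 1 RPKM in either column were compared. A gene is called higher or lower here at a ratio of 0.2 or more, about 1.15-fold, a size set with earlier results of these data known. Around each ratio a level band was drawn that spans 95% of the ratios found among the 500 genes of closest level.

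In C8161, 36 of the 37 genes were compared. The 6 called higher with ATF3 were STARD4, SCD, INSIG1, HMGCS1, SQLE and IDI1, and PMVK was called lower. The 6 make up 16.7% of the 36, against a background of 5.33% of 10941 genes, and the single lower gene makes up 2.78%, against 6.63%. The median ratio of the 36 genes was 0.04, against 0.01 for all genes compared. Of the 36, 20 were above 0, against 5694 of 10941 genes. The share called higher was above the background, while the median lay close to that of all genes. STARD4 and SCD lay above their level bands, 5.56% of the 36 against 2.63% of all genes, and 0 lay below theirs, against 2.60%.

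Among the enzymes that lead from acetyl-CoA to farnesyl diphosphate, HMGCS1 and IDI1 were called higher and PMVK lower in C8161. HMGCS1, the synthase that makes HMG-CoA (chromosome 5, 43287470 to 43313412, GRCh38), had 18.21 RPKM in C8161 with ATF3 and 15.33 in its control, 1.19-fold, a log2 ratio of 0.23. In A2058 it was at 17.32 against 16.68, a ratio of 0.05. IDI1, which isomerises isopentenyl diphosphate, was at 30.50 against 26.39 RPKM in C8161 (ratio 0.20) and at 21.24 against 21.47 in A2058 (−0.01). Both were higher with ATF3 in C8161 and nearly level in A2058. PMVK, the second of the 2 kinases that phosphorylate mevalonate (chromosome 1, 154924740 to 154942658), had 17.88 RPKM in C8161 with ATF3 and 20.98 in its control, a ratio of −0.22. It was at 29.12 against 34.31 in A2058, a ratio of −0.23 that lay below its band of −0.13 to 0.15. With the trends in GC content and length removed, described below, PMVK had −0.11 in C8161, no longer a call, and −0.26 in A2058. MVD, the decarboxylase that follows, was at 28.77 against 32.51 RPKM in C8161 (−0.17) and at 18.83 against 17.80 in A2058 (0.08). The ratios of MVK, the first mevalonate kinase, ACAT2, which condenses acetyl-CoA, and FDPS lay between −0.07 and −0.01 in C8161 and between −0.10 and 0.09 in A2058. The summed level of the 7 genes was 303.39 RPKM against 307.96 in C8161, and 246.09 against 243.33 in A2058.

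The steps from squalene to cholesterol differed little between the arms. SQLE, the epoxidase that oxidises squalene and one of the rate-limiting enzymes of the pathway, was at 69.07 RPKM with ATF3 against 59.89 in C8161 (ratio 0.20) and at 12.26 against 11.98 in A2058 (0.03). It was the only gene called higher among these 11 in C8161. MSMO1, which removes the C4 methyl groups, was at 31.74 against 28.65 RPKM in C8161 (0.14) and at 10.21 against 9.64 in A2058 (0.08). FDFT1, squalene synthase, was at 78.01 against 72.35 RPKM in C8161 and at 98.33 against 90.72 in A2058, a ratio of 0.11 in each. SC5D and HSD17B7, which act late in the pathway, had ratios of 0.11 and 0.09 in C8161. The remaining 6, LSS, CYP51A1, TM7SF2, NSDHL, EBP and DHCR7, lay between −0.05 and −0.02 there, and LSS, TM7SF2, EBP and DHCR7 were above 0 once the trends with GC content, described below, were removed. In A2058, 10 of the 11 were above 0, all at 0.11 or less, where 6099 of 11883 genes were above 0. TM7SF2, a sterol reductase, was at 4.75 against 5.21 RPKM there (−0.11). HSD17B7 shares 17.3% of its longest transcript with other genes, chiefly its pseudogene HSD17B7P2, and its values are uncertain to that extent.

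Among the sensors, INSIG1 was called higher in C8161 but lay inside its level band. SREBF1 was called in neither line but lay below its band in A2058. INSIG1, both a target of SREBP and its brake (chromosome 7, 155297878 to 155310235), had 32.82 RPKM in C8161 with ATF3 and 27.39 in its control, a ratio of 0.25. In A2058 it was at 18.95 against 18.28 (0.05). Its paralogue INSIG2, which is not an SREBP target in most cells, was at 9.05 against 8.42 in C8161 and at 10.15 against 9.49 in A2058, a ratio of 0.09 in each. SREBF1 was at 26.03 against 26.53 RPKM in C8161 (−0.03, and 0.08 with those trends removed). In A2058 it was at 40.33 against 45.49, a ratio of −0.17 below its band of −0.12 to 0.14. SREBF2 was at 41.71 against 38.81 in C8161 (0.10) and at 39.91 against 40.06 in A2058 (−0.01). SCAP was called in neither line, at 19.75 against 21.55 in C8161 (−0.12) and at 28.28 against 29.48 in A2058 (−0.06). The gene values do not separate the SREBP1a and SREBP1c transcripts of SREBF1.

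In the fatty acid branch SCD was the 1 gene of 9 called higher in C8161, and none was called lower. SCD (chromosome 10, 100347233 to 100364826), with the levels given above, had a ratio of 0.25 in C8161, barely above its band (0.254 against an upper limit of 0.25), and of 0.03 in A2058. FADS2 and FADS1, the delta-6 and delta-5 desaturases of polyunsaturated fatty acids, were at 10.70 against 9.53 and 44.54 against 41.38 RPKM in C8161 (0.15 and 0.10). In A2058 they were at 11.92 against 11.24 and 36.49 against 36.88 (0.08 and −0.01). FASN, the synthase that builds palmitate, was at 73.47 against 82.52 RPKM in C8161 (−0.17, inside its band). It was at 46.49 against 50.38 in A2058, a ratio of −0.11 at the lower edge of its band. ACLY, which supplies cytosolic acetyl-CoA from citrate, was at 74.41 against 79.82 in C8161 (−0.10) and at 109.60 against 110.12 in A2058 (−0.01). Neither FASN nor ACLY was called in either line. LPIN1, a phosphatidate phosphatase, was at 22.21 against 19.71 RPKM in C8161 (0.16) and at 6.95 against 7.59 in A2058 (−0.11). ACSS2, which makes acetyl-CoA from acetate, had the highest A2058 ratio of the list, 0.16, at 6.26 against 5.49 RPKM, and 0.03 in C8161. ACACA, the carboxylase that makes malonyl-CoA, and ELOVL6, which extends palmitate, had ratios of 0.04 and 0.03 in C8161 and of −0.09 and −0.01 in A2058.

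Of the transport genes, STARD4 had the highest ratio of the whole list. It encodes a cytosolic carrier of cholesterol and is an SREBP target (chromosome 5, 111496033 to 111512535). STARD4 was at 15.60 RPKM with ATF3 against 12.09 in the C8161 control, 1.29-fold, a ratio of 0.34 that exceeded those of 99.3% of the genes compared. In A2058 it was at 2.56 against 2.31, a ratio of 0.11. NPC1, which exports cholesterol from lysosomes, was at 60.82 against 54.85 in C8161 (0.15) and at 21.81 against 20.72 in A2058 (0.07). Of ABCA1, ABCG1 and MYLIP, the 3 genes named above as induced by LXR, none was called, and only MYLIP was compared in both lines. ABCG1, with the levels given above, was too low to be compared. ABCA1 was at 4.72 against 4.41 RPKM in C8161 (0.08), and at 0.07 against 0.10 in A2058, too low to be compared. MYLIP was at 3.46 against 3.60 in C8161 (−0.04) and at 7.86 against 7.91 in A2058 (−0.01).

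In A2058, 35 genes were compared. The level of ATF3 in this line was 3.86-fold that of its control, against 13.1-fold in C8161. None of the 35 was called higher, against 4.23% of 11883 genes, and PMVK was the 1 called lower (2.86%, against 3.51%). PMVK, SREBF1 and FASN lay below their level bands, 8.57% of the 35 against 2.63% of all genes. None lay above, against 2.55%. The median ratio was 0.03, against 0.00 for all genes, with 21 of 35 above 0, against 6099 of 11883 genes.

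**Figure D2:**
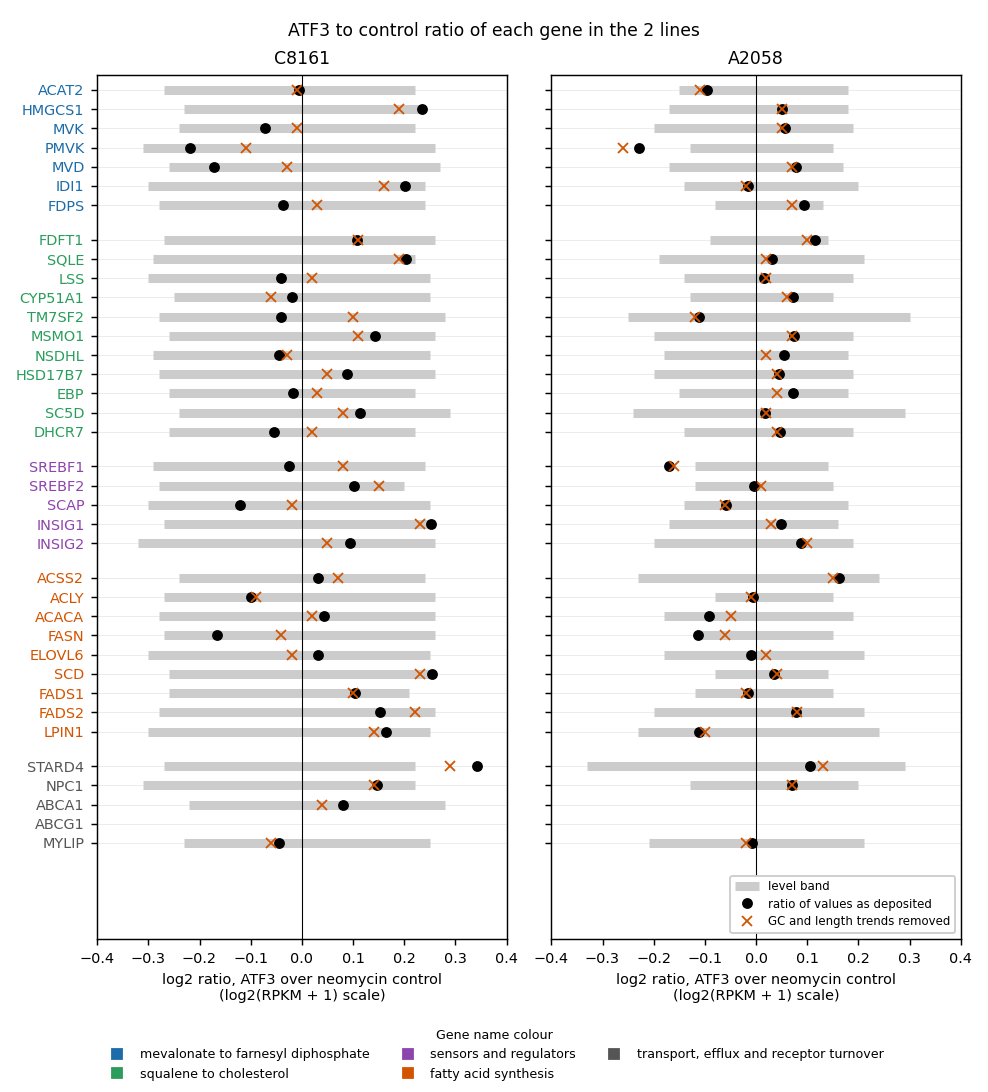
Log2 ratio of ATF3 over neomycin control for each gene in C8161 (left) and A2058 (right). Dots are ratios of values as deposited, crosses are the same with GC and length trends taken out, and grey bars are the level bands. Genes under 1 RPKM in both columns have no symbol. STARD4 (0.34) and SCD (0.25) lie beyond the upper end of their bars in C8161, and PMVK (−0.23), SREBF1 (−0.17) and FASN (−0.11) beyond the lower end in A2058.

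The order of the C8161 ratios followed GC content, in the list as in all genes. Across the 36 genes, which share the same 2 columns, Pearson's r of the ratio with the GC content of the longest transcript was −0.69, and across 10861 genes it was −0.40. STARD4 has a GC content of 34.2%, HMGCS1 40.2%, IDI1 41.1%, INSIG1 46.0%, SQLE 46.5% and SCD 47.1%, whereas PMVK has 59.5%, MVD 63.7% and FASN 65.3%. All 6 genes called higher were thus under 50% GC, and the 5 genes over 60% GC were all below 0. In the class under 45% GC the median was 0.11 for 9 of the genes against 0.05 for all genes, and from 45 to 50% it was 0.14 for 8 against 0.02. From 50 to 55% it was −0.01 for 7 against −0.01, from 55 to 60% −0.04 for 7 against −0.06, and over 60% −0.12 for 5 against −0.11. The genes thus lay above others of like GC content in the 2 lowest classes and close to them in the other classes. In A2058, r with GC content was −0.38 across 35 genes and 0.08 across 11758.

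Taking out the trends with GC content and transcript length, fitted on all genes, left r with GC content at −0.34 in the list and 0.03 in all genes. It took PMVK from −0.22 to −0.11, FASN from −0.17 to −0.04, MVD from −0.17 to −0.03 and SCAP from −0.12 to −0.02. STARD4 kept 0.29, INSIG1 and SCD 0.23 each, and FADS2 reached 0.22, while HMGCS1 and SQLE had 0.19 and IDI1 0.16. By this reckoning 4 of 36 were called higher (11.1%), against 5.79% of 10861 genes, and 0 were called lower, against 2.78%. The median was 0.05, against 0.01 for all genes, and 25 of 36 were above 0, against 5728 of 10861 genes. The part of GC content in these ratios was not tested. In A2058 the same removal left PMVK at −0.26 and SREBF1 at −0.16, and took FASN from −0.11 to −0.06.

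**Figure D3:**
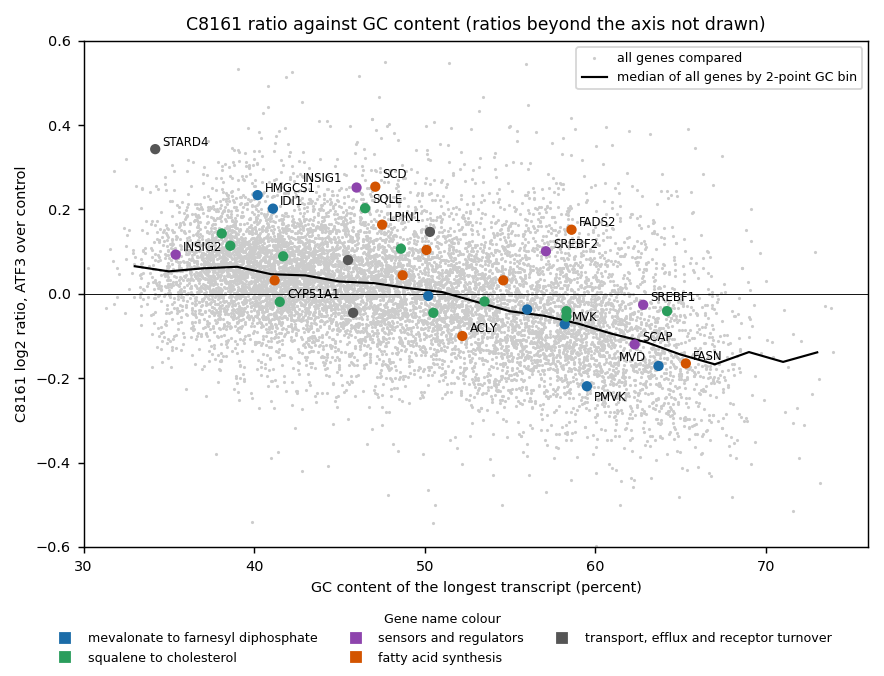
C8161 log2 ratio of ATF3 over control against GC content of the longest transcript in percent. Grey points are all genes compared, the black line is their median in bins of GC content, and coloured points are the genes of the list by role. The line falls from left to right. STARD4, INSIG1, SCD and SQLE stand above it, and FASN and SCAP lie close to it.

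The 2 lines share no library, so their ratios can be set side by side. Of the 35 genes compared in both, 13 were above 0 in both and 8 below 0 in both, where 47.4% of 10331 genes had the same sign in both. The 8 were ACAT2, ACLY, FASN, MYLIP, PMVK, SCAP, SREBF1 and TM7SF2. Of these, SREBF1 (0.08) and TM7SF2 (0.10) were above 0 in C8161 with the trends removed, and ACAT2 (0.02) with columns scaled to the same sum. Pearson's r between the lines was 0.39 across the 35 genes and −0.01 across all genes. Spearman's rho was 0.26 and −0.05, and both measures are descriptions without a test. In the difference of the ratios, C8161 minus A2058, LPIN1 (0.28), STARD4 (0.24), IDI1 (0.22), SCD (0.22) and INSIG1 (0.20) were at 0.2 or more. They make up 14.3% of the 35, against 9.99% of 10331 genes. MVD, at −0.25, was the 1 gene at −0.2 or less (2.86%, against 11.6%). The median difference was 0.05, against 0.00 for all genes.

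**Figure D4:**
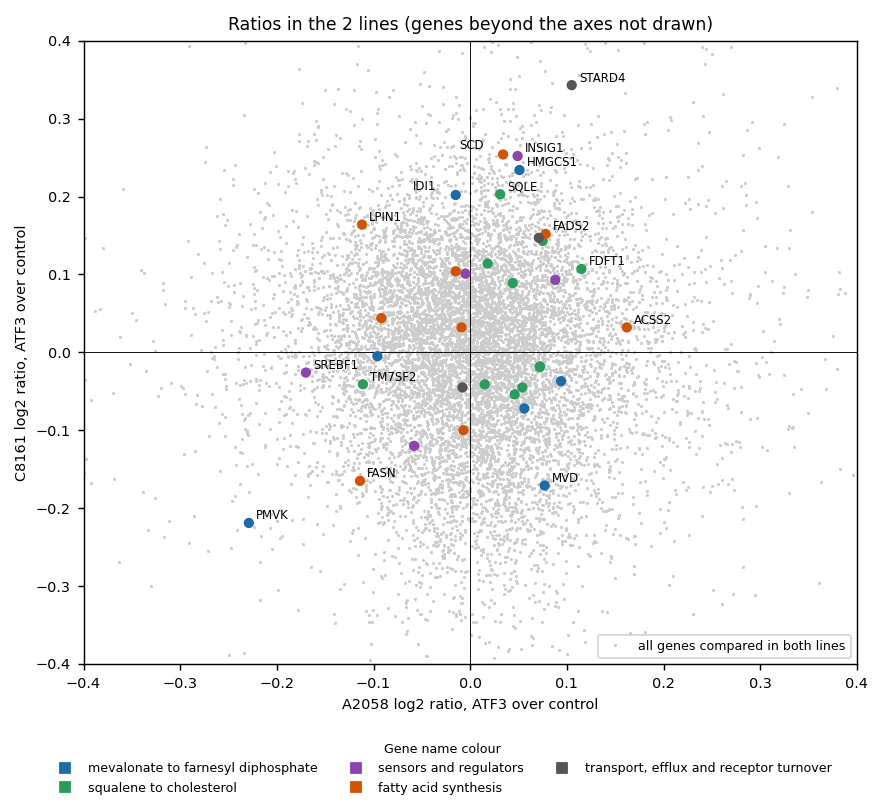
Log2 ratio of ATF3 over control in C8161 (vertical axis) against that in A2058 (horizontal axis). Grey points are all genes compared in both lines and coloured points are the 35 genes of the list by role. PMVK (−0.23 and −0.22) lies low in both lines, STARD4 (0.11 and 0.34) is highest, and LPIN1 and MVD lie in opposite corners.

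The neomycin controls of the lines differed far more from each other than the arms did. The ratio is here C8161 minus A2058, and a gene is called at 1 or more, 2-fold on the log2(RPKM + 1) scale. Of 36 genes, 6 were higher in C8161 (16.7%, against 9.36% of 12372 genes) and 2 were lower (5.56%, against 20.7%). The median was 0.22, against −0.19 for all genes. The columns with ATF3 gave the same counts, 6 and 2 of 36, against 9.92% and 21.4% of 12381 genes, with a median of 0.26 against −0.18.

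Neighbouring enzymes of the sterol pathway went in opposite directions between the lines. SQLE was at 59.89 RPKM in the C8161 control against 11.98 in the A2058 control, a log2 ratio of 2.23, and MSMO1 at 28.65 against 9.64, 2.97-fold higher. CYP51A1, the lanosterol demethylase that acts between them, was at 6.48 against 30.16 RPKM, 4.65-fold lower, and TM7SF2 at 1.49 against 5.21, a log2 ratio of −1.32. Of the longest CYP51A1 transcript, 88.9% also occurs in transcripts of another annotated gene, AC000120.2, so its level depends on how the authors' annotation assigned those reads. NSDHL, at 30.16 against 14.61, missed the size with a ratio of 0.997. EBP, DHCR7, ACAT2 and MVD lay between 0.78 and 0.85, and LSS (20.81 against 20.70) and HSD17B7 (9.65 against 9.61) were level. The summed level of the 11 genes was 326.23 RPKM against 251.42, a ratio of 1.30.

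The summed level of the 5 transport genes was 75.32 RPKM in the C8161 control against 31.06, a ratio of 2.42, the highest of the 5 roles. ABCA1, which loads cholesterol onto apolipoproteins, was at 4.41 RPKM in the C8161 control against 0.10, 44.1-fold higher. Its log2 ratio was 2.30 with 1 RPKM added to each value, and 4.50 with 0.1 RPKM added. STARD4 was at 12.09 against 2.31, 5.23-fold higher, and NPC1 at 54.85 against 20.72, 2.65-fold higher. MYLIP was at 3.60 against 7.91 RPKM (−0.95), short of a call. LPIN1 was at 19.71 against 7.59, 2.60-fold higher. The regulators lay closer together, with SREBF2 at 38.81 against 40.06, SREBF1 at 26.53 against 45.49 (−0.76), SCAP at 21.55 against 29.48 (−0.43, and 0.02 with GC and length trends removed) and INSIG1 at 27.39 against 18.28 (0.56). In the fatty acid branch FASN was at 82.52 against 50.38 RPKM (0.70), ACLY at 79.82 against 110.12 (−0.46), ACACA at 10.07 against 15.65 (−0.59) and ACSS2 at 3.53 against 5.49 (−0.52). None of these 4 reached the size of a call. Cell line and number of libraries cannot be told apart here, since the C8161 columns combine 3 libraries and the A2058 columns hold 1.

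**Figure D5:**
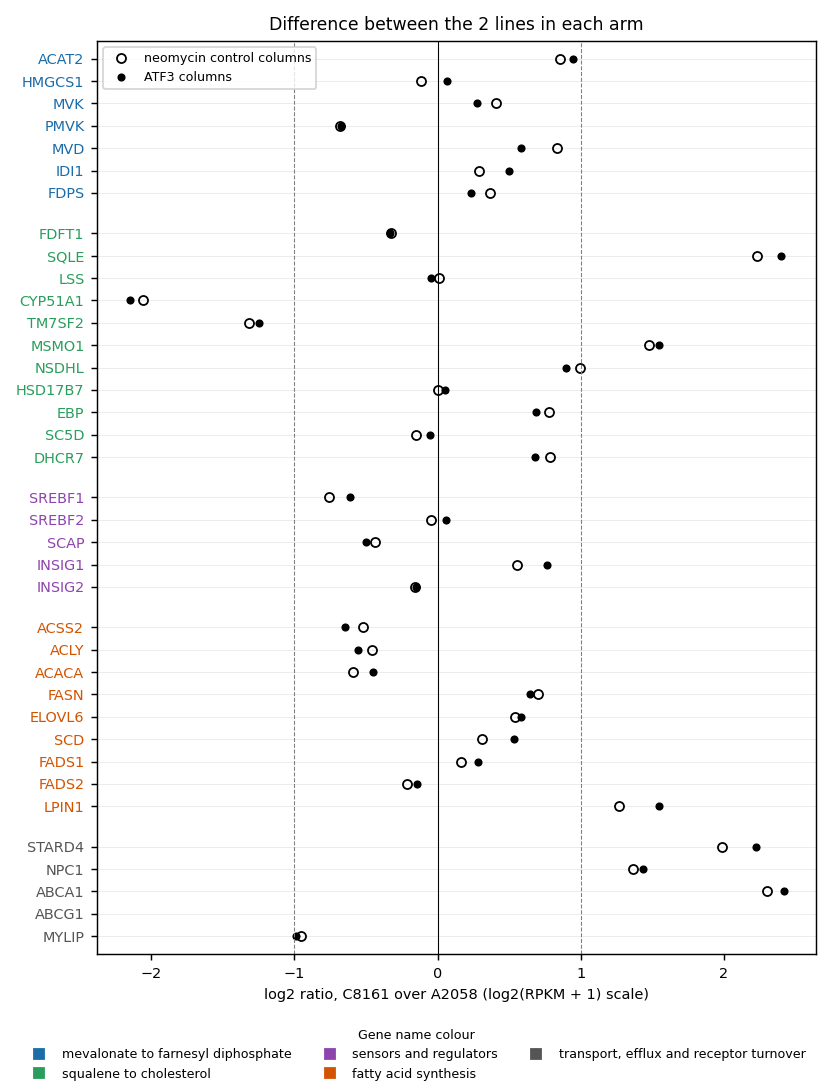
Log2 ratio of C8161 over A2058 for each gene, between the control columns (open circles) and between the columns with ATF3 (dots). Dashed lines mark 1 and −1, and ABCG1, under 1 RPKM in every column, is not drawn. Open circles and dots lie close together for each gene, with SQLE and ABCA1 above 2 and CYP51A1 below −2 in both.

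Neighbouring pathways were read from 8 further lists. Of their 93 genes compared in C8161, 6 were called higher (6.45%, against 5.33% of all genes) and 4 lower (4.30%, against 6.63%), so the lists together did not stand out from the background. With GC and length trends removed, 4 were called higher (4.30%, against 5.79%) and 3 lower (3.23%, against 2.78%). Among 10 genes of SREBP processing and turnover, 1 was called higher in C8161, RNF139 (25.41 RPKM with ATF3 against 21.78, a ratio of 0.21 that fell short of a call with the trends removed), which encodes a sterol-sensing ubiquitin ligase, and 0 lower. UBE2G2 (36.40 against 39.05) and RNF145 (64.96 against 60.78) had ratios of −0.10 and 0.09. Among 14 genes of sterol trafficking and storage compared in C8161, 3 were called higher and 1 lower. The shares of all genes, 5.33% and 6.63%, are the background for this and each other list. Of the 14, 2 lay above their level bands and 0 below, against 2.63% and 2.60% of all genes. OSBP, an oxysterol-binding carrier of cholesterol, was at 20.31 against 16.36 (0.30), and SOAT1, which esterifies cholesterol, at 54.95 against 46.85 (0.23, and 0.17 with the trends removed). SCARB1, the HDL receptor, was at 34.46 against 40.67 (−0.23). NPC2, which works with NPC1 in the lysosome, was the other one called higher, at 94.62 against 81.16 (0.22), and was chosen after seeing its value. In A2058 none of these 4 was beyond 0.04 in either direction, and 0 of the 15 genes were called.

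Of 17 genes of fatty acid elongation, desaturation and activation, 2 were called higher in C8161 and 0 lower, against 5.33% and 6.63% of all genes. With the trends removed the counts were 1 each, against 5.79% and 2.78%. SCD5, a second stearoyl desaturase, was at 5.83 against 4.78 RPKM (0.24), ELOVL2 at 4.67 against 3.93 (0.20, and 0.15 with the trends removed) and HSD17B12 at 9.68 against 11.11 (−0.18, and −0.24 with the trends removed). Of 15 genes of glycerolipid synthesis, 0 were called higher and 1 lower, AGPAT2, an acyltransferase of phosphatidate synthesis, at 35.23 against 43.85 (−0.31, and −0.14 after removal of the trends, with a GC content of 65.9%). DGAT1 was at 11.19 against 13.00 (−0.20 when rounded, just short of a call) and PCYT2 at 7.07 against 7.92 (−0.14). Of 11 genes of the isoprenoid branch, 0 were called higher and 1 lower, PDSS1, a subunit that makes the ubiquinone side chain, at 10.52 against 12.36 (−0.21). FNTB, a farnesyltransferase subunit whose transcript shares 58.0% with the read-through CHURC1-FNTB, was at 4.17 against 3.55 (0.18), and RABGGTA at 7.31 against 8.42 (−0.18).

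None of the 7 compared genes of the LXR and oxysterol list was called, with NR1H2, which encodes LXR-beta, at 28.22 against 31.74 RPKM (−0.16) and LPCAT3 at 24.76 against 22.61 (0.13). PLTP, which the rule also names, was not compared in C8161, at 0.25 against 0.35. Among 11 genes of fatty acid oxidation, 0 were called higher and 1 lower. The latter was ANGPTL4, a secreted lipase inhibitor picked for its value, at 2.58 against 3.52 (−0.34, and short of a call with the trends removed) and, in A2058, at 2.79 against 2.23 (0.23). Of the genes the rule names in that list, PLIN2 was at 0.12 against 0.23 and not compared, CPT2 at 3.96 against 4.35 and ACADVL at 50.97 against 54.71. None of the 8 compared genes for acetyl-CoA and NADPH supply was called, with IDH1 at 43.16 against 38.38 (0.17) and MID1IP1 at 29.38 against 31.22 (−0.08). The medians of the 8 lists in C8161 lay between −0.04 and 0.02, against 0.01 for all genes compared. In A2058, of 99 genes compared in the 8 lists, 4 were called higher (4.04%, against 4.23% of all genes) and 2 lower (2.02%, against 3.51%), at or under the background. These are named after seeing their values. FNTB, ELOVL4, ANGPTL4 and PLIN2 were each at 0.23, FBXW7, which marks nuclear SREBP for degradation, at −0.27 (3.26 against 4.12 RPKM), and PGGT1B at −0.26 (7.69 against 9.38).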

How the data were processed

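Expression was deposited by the authors as RPKM, the unit named per the file headers, for 18478 Entrez identifiers. The submitters' processing notes list Bowtie2 and RSEM as tools and hg38 as build. Their versions, the annotation, any filters and the use of strand were not given in the sources used here. Reads of the introduced ATF3 and of the cell's own gene are not separated.

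Symbols and coordinates came from RefSeq genes of GRCh38.p14 (18156 identifiers matched). GC content, length and shared stretches of 50 bases came from the longest GENCODE 29 transcript (17850 genes). Values were used as deposited. A limma test for C8161 would have needed a value per library and was not run. Trends of the log2 ratio with GC content and log10 length were taken out by lowess (fraction 0.3, statsmodels 0.14.6) fitted on all genes compared, keeping the median. The promoter stretch of PMVK, which lies inside the span of the gene, was searched but is not shown. The code for bands and trend removal was run on simulated counts of an assumed depth, with bands drawn after trend removal. The bands reported here were drawn on ratios as deposited. That run therefore does not measure how well they find differences of the sizes given here. Figures were drawn with matplotlib 3.10.9.

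Named are all 37 members and, from each of 8 related lists, the 3 genes with the largest absolute C8161 ratio at a mean of at least 5 RPKM over the columns; 1 of these is not reported here. Members, lists, motifs and call sizes were chosen with earlier results of these data known. The alternatives were other pseudocounts, minimum levels, scalings, call sizes and bands, trend removal, and the ATF3 columns for the comparison of lines.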

Additional observations from a re-analysis of the deposited data

Results flagged for a closer look

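3 genes were picked out because their ratio of ATF3 to control had opposite signs in the 2 lines and differed by 0.2 or more on the log2 scale. With 1 value per arm the difference was not tested. LPIN1 had a difference of 0.28, C8161 minus A2058, from ratios of 0.16 and −0.11. MVD had a difference of −0.25, from ratios of −0.17 and 0.08, and its C8161 ratio was −0.03 with GC and length trends taken out. IDI1 had a difference of 0.22, from ratios of 0.20 and −0.01, so its A2058 value was close to level.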

How the results depend on the processing

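Of the summary values recomputed under 11 other settings, 109 stayed within 0.05 on the log2 scale or within 1.5 times of a count, and 16 moved. In C8161 the count of genes called higher, 6, was 1 at a call size of 0.3, and the count called lower, 1, was 0 with columns scaled to the same sum, with the GC and length trends removed and at a call size of 0.3. The 2 genes above the level band became 1 under quantile normalization, 1 with the trends removed and 4 with a band of 200 genes. In A2058 the 1 gene called lower became 0 at a call size of 0.3. For the controls of the 2 lines, the median of 0.224 was 0.286 without a minimum level, 0.162 when 5 RPKM were required and 0.289 with the trends removed. The 6 genes higher and 2 lower there became 2 and 1 at a call size of 2, and the 2 lower became 1 under quantile normalization. With 0.1 or 0.5 RPKM added in place of 1, these counts were 7 and 3. In the difference between the lines, 5 higher and 1 lower became 3 and 0 with the trends removed. The median of all genes between the controls went from −0.185 to 0.078 under quantile normalization, a shift of all genes against which the ratios between the lines are to be read. None of the genes called in either line or between the control columns changed its sign under these settings. STARD4 ranged from 0.29 to 0.37 in C8161, and SQLE from 0.19 to 0.23. No paired analysis was possible because the C8161 libraries are combined in 1 column per arm, and leaving out each replicate was not run for the same reason. ABCA1 and ABCG1 were at 0.10 RPKM or less in A2058, and the part of depth in these low values was not tested.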

Other observations

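The genes named here were picked from the related lists for their wide differences between the control columns of the lines, and do not stand for a pathway. APOE, the apolipoprotein that accepts cholesterol from ABCA1, was at 331.45 RPKM in the A2058 control and at 0.26 in the C8161 control, where ABCA1 was at 0.10 and 4.41. PLIN2, which coats lipid droplets, was at 63.77 RPKM in A2058 against 0.23 in C8161, PLTP, a phospholipid transfer protein, at 31.96 against 0.35, and CYP27A1, the sterol 27-hydroxylase, at 22.67 against 0.11. PDK4, a PPAR target, was at 32.80 against 0.05 and GRAMD1B, a sterol carrier, at 74.07 against 1.58. CAV1, the coat protein of caveolae, and ACSL5, an acyl-CoA synthetase, went the other way, at 10.12 RPKM in A2058 against 154.59 in C8161 and at 0.27 against 13.80. The columns with ATF3 showed the same pattern, with APOE at 349.89 against 0.26 and PLIN2 at 74.86 against 0.12.

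PLIN2 was also higher with ATF3 than in its control in A2058, at 74.86 against 63.77 RPKM (log2 ratio 0.23). Of the 13 genes of the fatty acid oxidation list, which holds it, 2 were called higher there, against 4.23% of all genes. These were PLIN2 and ANGPTL4 (0.23). Both had been named after their values were seen, so their calls do not stand for the list. The 13 genes had a median of 0.02, against 0.00 for all genes, with 11 above 0, against 6099 of 11883 genes.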
